A study of Mus musculus with 31 samples.

Results

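The cytosolic ribosomal proteins are the protein parts of the large and the small subunit of the ribosome outside mitochondria, named Rpl and Rps after their subunit. The rows described here were chosen by name alone: each had to stand in the count tables of all 3 depots, and its RefSeq accession had to map to Rplp0, Rplp1, Rplp2, Rpsa, or Rpl or Rps with a number and optional letters. S6 kinases (Rps6k genes) and symbols ending in -ps, which mark pseudogenes, were left out, and of several rows per symbol the one with the highest total count was kept. This gave 68 genes among the 17334 accessions of the tables, 41 named for the large and 27 for the small subunit. One of them, Rps4l, is a transcribed pseudogene in the annotation and was kept because its symbol met the rule; the other 67 are protein-coding genes. A further 17 protein-coding symbols of the same form, Rplp2 and Rps27a among them, were not analysed here. In the labels the libraries are from male C57BL/6J mice aged 8 weeks, all kept for 8 days at thermoneutrality, after which the day 0 groups were sampled and the others spent 2 or 4 days at 4 °C. Interscapular brown fat (iBAT, which burns fuel for heat) gave 3, 4 and 3 libraries at days 0, 2 and 4. Inguinal white fat (iWAT, which gains heat-producing cells in the cold) gave 4, 3 and 5, and epididymal white fat (eWAT) gave 3, 3 and 3. No genotype or drug differed between the 9 groups. The labels do not say that the libraries of a group came from separate mice, so p-values measure the spread between libraries, which are named below by depot and label number.

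A ribosome holds 1 copy of most of these proteins beside its RNAs, and cells make them in matched amounts. Most of their messenger RNAs begin with a C followed by a run of pyrimidines, the terminal oligopyrimidine (TOP) tract, through which mTOR signalling sets their translation. Fast-growing cells are rich in ribosomes, while mature fat cells are filled largely with lipid. In bulk tissue a lower level can come from fewer cells of a type or from less RNA per cell, and these cannot be told apart.

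Promoters of 49 of the 68 genes were found in the RefSeq table of build GRCm38.p6, which gives 250 bases before and 50 from the annotated start. The TOP-like letters CTTTCC or CTTTTC, searched on both strands from 20 bases before to 30 bases after the start, were on the gene's strand in 13 of the 49 genes, 26.5%, against 4.72% of all 27025 genes with a promoter. On the other strand they were in 2.04% against 4.53%. The ETS-type letters CCGGAAGT were on the gene's strand anywhere in the promoter in 14.3% against 2.35%, and TATAAA in 10.2% against 9.77%. CTTTCC anywhere in the promoter was on the gene's strand in 42.9% against 16%. Matches of different motifs could overlap. A match is a description of letters, not a site. The stretches below run from 35 bases before the start through 25 bases from it on, 5′ to 3′ on the gene's strand, with CTTTCC or CTTTTC in capitals. They are shown for genes on which the results turn: Rpl13a, Rps12 and Rpsa for the difference between depots, Rpl35 and Rpl27a for genes that were higher in libraries with a high score, described further on, and Rpl18 and Rplp0 for genes that were lower there.
Rpl13a, chr7:45128721-45128780, minus strand: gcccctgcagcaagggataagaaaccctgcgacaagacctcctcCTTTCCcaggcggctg
Rps12, chr10:23787185-23787244, minus strand: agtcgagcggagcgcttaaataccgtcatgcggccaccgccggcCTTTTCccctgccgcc
Rpsa, chr9:120127731-120127790, plus strand: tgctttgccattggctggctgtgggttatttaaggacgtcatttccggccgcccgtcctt
Rpl35, chr2:39005107-39005166, minus strand: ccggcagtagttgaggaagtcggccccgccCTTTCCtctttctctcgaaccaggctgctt
Rpl27a, chr7:109519160-109519219, plus strand: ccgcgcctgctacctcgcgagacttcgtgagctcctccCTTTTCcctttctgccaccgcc
Rpl18, chr7:45718036-45718095, plus strand: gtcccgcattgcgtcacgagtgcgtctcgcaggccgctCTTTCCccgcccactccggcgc
Rplp0, chr5:115559432-115559491, plus strand: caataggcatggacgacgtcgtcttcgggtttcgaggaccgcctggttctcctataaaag
Counting the start as base 1, the match began at base 10 in Rpl13a and Rps12 and at base 4 in Rpl27a and Rpl18, and it began 5 bases before the start in Rpl35. Rpsa and Rplp0 held no match in these windows. Genes with the letters are among each of these 3 sets.

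Total counts ran from 1.5 to 5.53 M per library (M, 1000000 counts; median 3.42 M), and the ribosomal protein rows held 58792 to 686695 counts of them. Brown adipocyte markers (6 of 7 with a row) summed to 8548 ± 1144 counts per 1000000 (CPM) in iBAT at day 0 (SD, n = 3), 1001 ± 691 in iWAT (n = 4) and 61.9 ± 85.5 in eWAT (n = 3), in the order of the labels. Libraries iBAT539 and iBAT548 list 159 and 57 accessions with a count of 1, where the other iBAT libraries list 1014 to 1224, so a missing value in these 2 is not shown to be a count of 0. Within groups the libraries of every depot also spread along 1 shared axis. Each library has a score on it, computed without the ribosomal protein rows: 3 iBAT, 6 iWAT and 3 eWAT libraries score above 20. At day 0 these are iWAT516, iWAT517, iWAT518 and eWAT518. Thus 3 of 4 iWAT libraries but none of the 3 iBAT libraries stand on the high side of their own depot. Scores are centred on the mean of each depot's own libraries over all days, so they do not place 1 depot against another.

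Ribosomal protein rows took a larger share of the counts in iWAT than in the other depots. At day 0 the share of the total count was 3.84, 4.64 and 3.83% in iBAT, 14.3, 13.1, 11.4 and 8.96% in iWAT, and 6.43, 5.02 and 5.13% in eWAT. Every iWAT library lay above every library of the other depots at that time. Means were 4.1 ± 0.466% in iBAT (SD, n = 3), 11.9 ± 2.32% in iWAT (n = 4) and 5.53 ± 0.784% in eWAT (n = 3). In the cold the iBAT share was 4.03 ± 0.231% at day 2 (n = 4) and 3.35 ± 0.453% at day 4 (n = 3). It was 9.09 ± 1.64% (n = 3) and 8.67 ± 2.77% (n = 5) in iWAT, and 5.71 ± 0.879% and 6.55 ± 1.57% in eWAT (n = 3 each). Over all days iBAT stayed between 3.05 and 4.64%, below every iWAT library (6.21 to 14.3%), whereas eWAT (4.78 to 8.26%) overlapped with iWAT. These shares are values without a test, because a sum over the genes of the set was given no p. Divided by TMM-scaled library sizes, which allow for a few very abundant transcripts, the iBAT mean became 4.59, 5.2 and 4.15% at days 0, 2 and 4. On that scale the depots overlapped over all days, with iBAT from 4.11 to 6.18% (iBAT535) and iWAT from 6.03% (iWAT548) to 13.8%, while at day 0 every iWAT library still lay above the others.

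**Figure D1:**
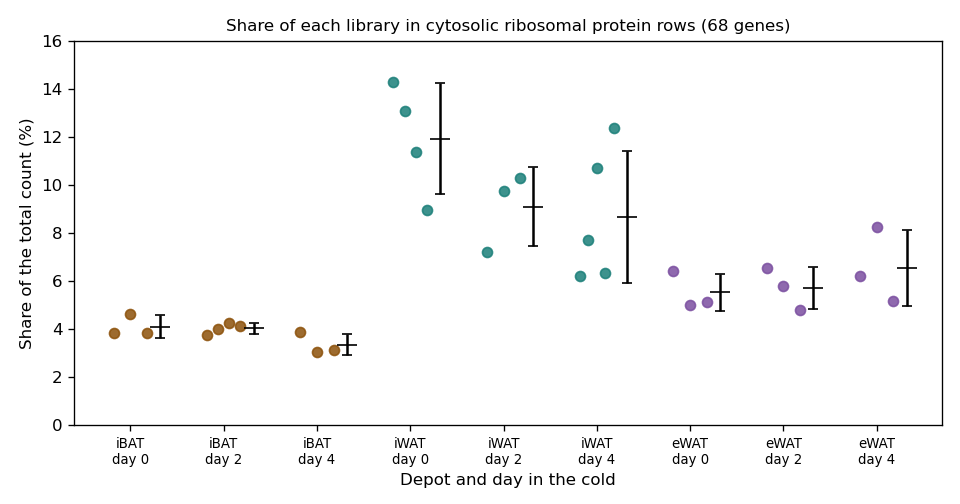
Share of the total count held by the 68 ribosomal protein rows (y axis, percent) in each of the 31 libraries by depot and day (x axis). Points are libraries, and the black mark with its bar is the group mean ± SD. The iBAT points lie between 3.05 and 4.64%, the iWAT points between 6.21 and 14.3%.

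Single rows carried very different parts of that share. Per kilobase of the GENCODE M21 transcript, the highest mean level over all libraries was that of Rplp1, a protein of the stalk that recruits elongation factors, at 12005 CPM per kb. Rps29 followed with 11102, and Rpl17 at 3181 and Rps12 at 3065 CPM per kb were also among the 5 highest. The order differed by depot: in iWAT Rps29 averaged 18839 ± 17565 CPM per kb (SD, n = 12) and Rplp1 15939 ± 6554, values that do not differ beyond their spread, whereas in iBAT Rps29 averaged 4974 ± 4562 and Rplp1 9369 ± 3230 (n = 10). The lowest were the muscle paralog Rpl3l at 0.12, Rps27 at 0.421, Rps15a at 1.7, Rps20 at 1.98 and Rpl19 at 4.53 CPM per kb. Rpl3l and Rps27 hold 16 counts each over all libraries and were not tested, and Rpl19 was not tested within iBAT. The levels of Rps15a and Rps20 rest on annotated transcripts of 5179 and 3706 bases, far longer than the others. The uneven levels of these rows stand beside a mapping limit. Of the 68 genes, 65 share at least one 50-base window with a transcript of another gene, pseudogenes included, and in 32 genes over 50% of windows are shared, so reads of these rows could be split among copies. Across the 66 tested genes the shared percentage and the mean CPM had a Spearman rho of 0.149, as a description over genes, which are not independent.

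At day 0, in mice that had not been in the cold, brown fat had lower levels of ribosomal protein RNAs than inguinal fat. edgeR called 17 of 66 tested genes lower in iBAT (25.8%), where 9.77% of all 11041 rows tested were lower at the same threshold. It called 0 higher, against 8.12% of all rows. The median log2 difference of the 66 genes was -0.96, that of all rows -0.18. The called genes were 7 of 40 tested of the large subunit (Rpl8, Rpl12, Rpl13a, Rpl17, Rpl36a and Rplp1 among them) and 10 of 26 of the small subunit (Rpsa, Rps3, Rps7, Rps12, Rps13, Rps15a, Rps16 and Rps19 among them). DESeq2 called 29 lower (all rows 16.7%), among them all 17, and voom called 14 (all rows 9.09%), among them 12.

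Rpl17, a protein at the exit of the ribosome's peptide tunnel, was at 1029, 1677 and 1173 CPM in the iBAT libraries of day 0. It was at 6452, 3076, 6901 and 2755 CPM in those of iWAT. No iBAT value reached an iWAT value, and the log2 difference was -1.89 (SE 0.41, adjusted p 0.00181). Rpl13a, which is also known to leave the ribosome and silence inflammatory messages, was at 1442, 993 and 1297 CPM in iBAT against 3058, 4675, 3615 and 2768 CPM in iWAT. Its log2 difference was -1.51 (SE 0.36, adjusted p 0.00378), again with no overlap. Rps12, a small-subunit protein of the head, was at 1036, 1374 and 934 CPM in iBAT and 3585, 2892, 3347 and 2629 CPM in iWAT, -1.48 on the log2 scale (SE 0.37, adjusted p 0.00618). Rpl36a was at 122, 68.7 and 112 CPM against 218, 403, 194 and 310 CPM, -1.48 on the log2 scale (SE 0.34, adjusted p 0.00308). These 4 of the 17 genes stayed past the threshold under all 41 alternative settings, DESeq2, voom and each library left out among them.

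The other called genes were less steady. Rpsa, the laminin receptor and a small-subunit protein, was at 1218, 569 and 771 CPM in iBAT and 2041, 2781, 1704 and 1404 CPM in iWAT, and kept the call in 38 of 41 settings. Rps7 had the largest log2 difference of the called genes, -2.76 (SE 0.96, adjusted p 0.0459). Its iWAT values of 288, 1103, 421 and 71 CPM overlapped with the iBAT values of 44.8, 111 and 53.3 CPM, and the lowest was in iWAT522, the 1 iWAT library of day 0 with a low score. Rps15a, at 4.48, 4.84 and 5.04 CPM in iBAT and 32.6, 20.4, 20.7 and 4.42 CPM in iWAT, was low in the same library. Rps6, the subunit protein that S6 kinase phosphorylates, was at 130, 331 and 222 CPM against 895, 770, 422 and 417 CPM. These did not overlap, but its adjusted p of 0.0563 missed the threshold. In all, 21 of the 66 genes had every iWAT library of day 0 above every iBAT library (31.8%), against 15.1% of all rows. No adjusted p was under 0.05 for Rplp0, the base of the stalk, which was at 1050, 419 and 813 CPM in iBAT and 263, 725, 136 and 1279 CPM in iWAT.

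The share of all rows called under the following settings is not given here. The count of called genes rested on single libraries and on scaling. Without iBAT516, iBAT517 or iBAT518 it was 7, 8 or 4, without iWAT516 or iWAT517 it was 9 or 8, with library size alone it was 26, without the filter on low counts it was 10, and the median log2 difference stayed between -1.32 and -0.84 under every setting tried.

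**Figure D2:**
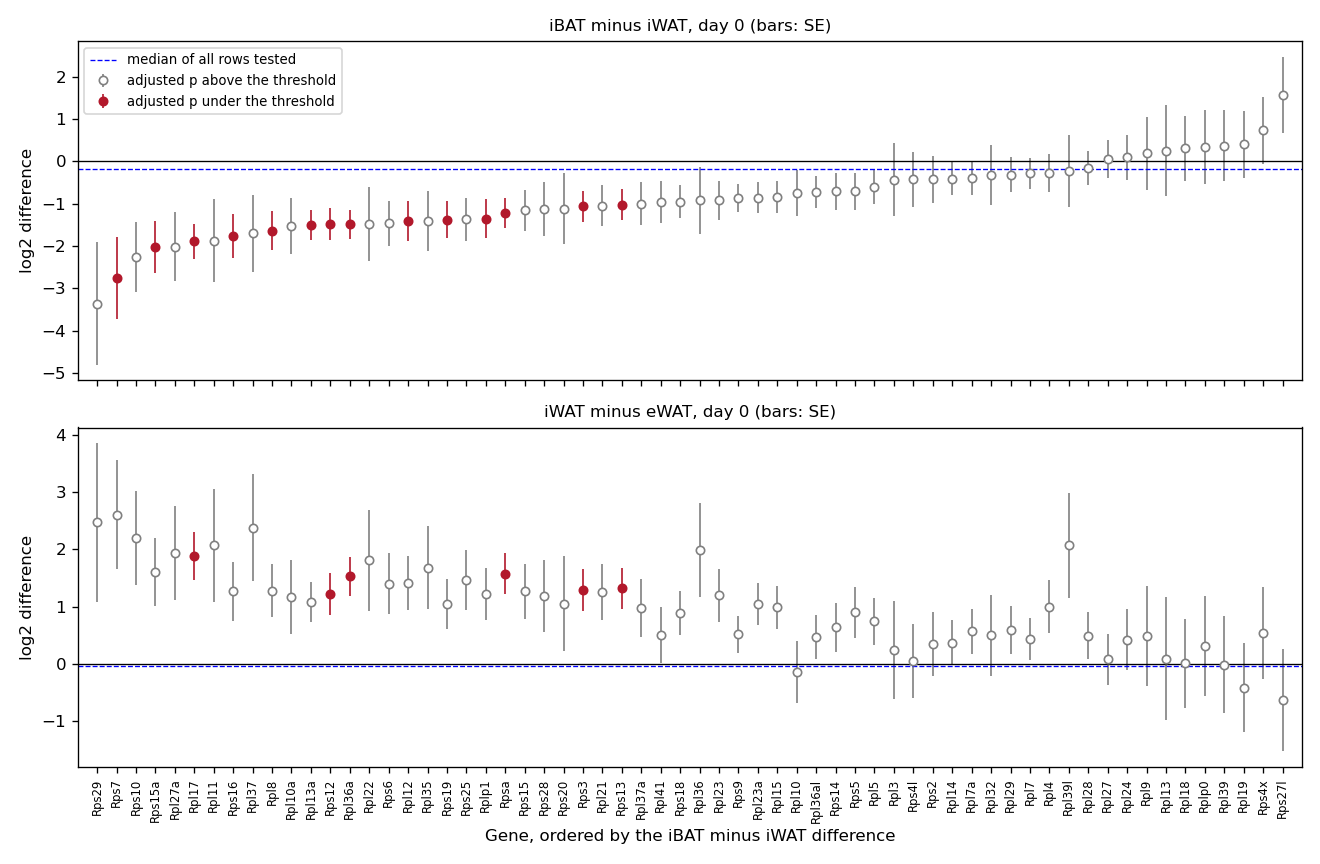
Log2 difference at day 0 of 62 of the 66 tested genes, iBAT minus iWAT above and iWAT minus eWAT below, with SE bars; genes stand on the x axis in the order of the upper panel. Red points had an adjusted p under 0.05, and the dashed line is the median of all rows tested, -0.18 above and -0.04 below; most points lie below 0 in the upper panel and above 0 in the lower.

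Inguinal fat also had higher levels than epididymal fat at day 0. edgeR called 8 of 66 genes higher in iWAT (12.1%), against 5.02% of all rows. It called 0 lower, against 2.8% of all rows. Rpl17, Rpl36a, Rps3, Rps12, Rps13 and Rpsa were among them. The median log2 difference was 1.04, against -0.04 over all rows, and 62 of the 66 differences were positive. DESeq2 called 21 higher (all rows 7.58%) and voom 10 (all rows 5.77%), each including the 8. This comparison and the one with iBAT share the 4 iWAT libraries, so that the 2 are not independent. Rpl17 was at 1633, 1316 and 954 CPM in eWAT, below every iWAT value, with 1.88 on the log2 scale (SE 0.41, adjusted p 0.00407). Rpsa was at 619, 762 and 613 CPM in eWAT, 1.58 on the log2 scale (SE 0.36, adjusted p 0.00615). Rpl36a was at 115, 118 and 60.5 CPM, 1.53 on the log2 scale (SE 0.34, adjusted p 0.00499). These 3 held under all 41 alternatives. Every iWAT library lay above every eWAT library at day 0 in 22 of 66 genes (33.3%), against 10.1% of all rows. The count of 8 called fell to 4, 3 or 5 without iWAT516, iWAT517 or iWAT518, and to 3 without eWAT516, eWAT517 or eWAT518. It rose to 14 without iWAT522 and to 16 with the library score in the fit. It fell to 4 with library size alone or without the filter. Shares of all rows called under these settings are not given here.

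No ribosomal protein gene differed past the threshold between brown and epididymal fat at day 0. edgeR called 0 of 66 (all rows 10.3%), and 0 had an unadjusted p under 0.05 (all rows 22.8%). DESeq2 and voom also called 0 (all rows 15.2 and 11.3%). The median log2 difference was 0.10, against -0.18 over all rows, with a median SE of 0.53 per gene. The extremes were Rpl10, a protein needed for the subunits to join, at -0.90 (SE 0.58, adjusted p 0.399), and Rpl39l, a paralog of Rpl39 typical of testis, at 1.84 (SE 0.95, adjusted p 0.253).

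Over all days, a few genes separated inguinal fat from the other depots in every library. Every one of the 12 iWAT libraries lay above all 10 iBAT libraries for 6 of 66 genes (9.09%) against 4.57% of all rows, Rpl13a, Rps9, Rps12, Rps13 and Rps18 among them. Rpl13a ran from 2385 to 4675 CPM in iWAT and reached at most 2253 CPM in iBAT and 2355 CPM in eWAT. Rps13, near the subunit interface, ran from 477 to 970 CPM in iWAT, and reached at most 447 CPM in iBAT and 412 CPM in eWAT. Rpl13a, Rps13 and Rpsa were the 3 of 66 genes (4.55%) above every eWAT library, against 2.72% of all rows. No gene of the 66 had all iBAT libraries above all eWAT libraries (all rows 3.96%) or all below them (5.84%).

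Lymphocyte markers moved with the inguinal excess. Of the 14 markers, 12 have a row, and 11 of these had counts in every iWAT library. Lck had counts in 2 of the 12 iWAT libraries and in none of eWAT. They summed to 3307 ± 607 CPM in iWAT at day 0 (SD, n = 4, from 2478 to 3909), 18.5 ± 8.28 in iBAT (n = 3, from 9.85 to 26.4) and 27.5 ± 8.2 in eWAT (n = 3, from 18 to 32.5). The B-cell gene Cd79a had a median of 1330 CPM over the iWAT libraries, 3.47 over those of iBAT and 10.3 over those of eWAT, and the T-cell gene Cd3e had medians of 39.2, 0.371 and 0.626 CPM. Within iWAT, the 2 libraries with the lowest marker sums, iWAT553 at 876 CPM and iWAT550 at 1202 CPM, had ribosomal protein shares of 6.32 and 7.71%. The 2 with the highest, iWAT555 at 4657 CPM and iWAT516 at 3909 CPM, had shares of 12.4 and 14.3%. Over the 12 iWAT libraries Pearson's r between the sum and the share was 0.808 and Spearman's rho 0.811. Pearson's r was 0.763 over the 10 libraries left without the 2 farthest from the median sum, and 0.897 for deviations from group means. These are descriptions without a p, and both measures are parts of the same total count. Whether the lymphocytes carried the excess was not tested. The 4 iWAT libraries with shares of 6.21 to 7.71%, at marker sums of 876 to 2951 CPM, lay within the eWAT range of shares, where the marker sums were 13.2 to 55.7 CPM. Other cells differed too at day 0: markers of dividing cells summed to 137 ± 78.8 CPM in iWAT (SD, n = 4), 20.9 ± 0.762 in iBAT and 34.7 ± 5.49 in eWAT (n = 3 each). Epididymis markers summed to 126 to 24947 CPM in the eWAT libraries of day 0 and to at most 113 CPM in those of iWAT. Their part in the depot differences was not tested.

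**Figure D3:**
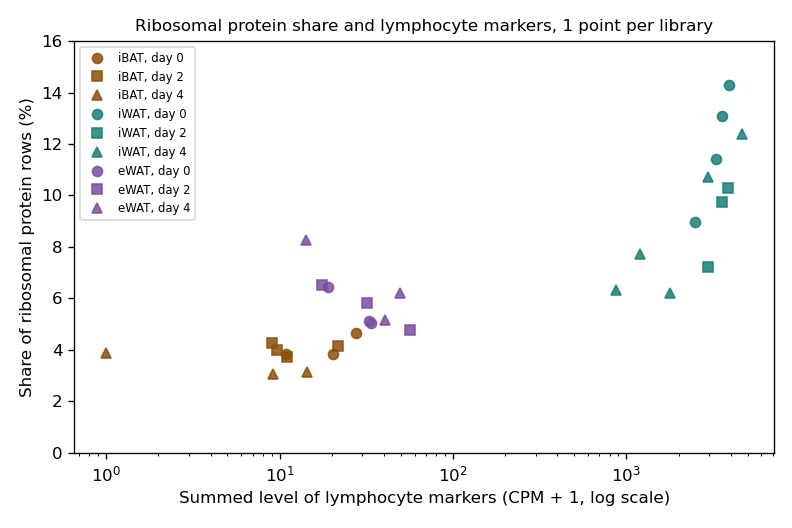
Summed lymphocyte markers (x axis, CPM + 1, log scale) and ribosomal protein share of the total count (y axis, percent), 1 point per library, coloured by depot and shaped by day. The 12 iWAT libraries stand at 876 CPM and above, the others at 55.7 CPM and below, and within iWAT the share is higher where the markers are higher.

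Other genes of the translation machinery were counted as lists by their role. Of the ribosome biogenesis genes, 4 of 30 tested were lower in iBAT than in iWAT at day 0 (all rows 9.77%) and 1 was higher (all rows 8.12%), so that these counts were near the share of all rows, with a median log2 difference of -0.77. The 4 were Npm1 (nucleophosmin, 4.74 ± 1.03 CPM in iBAT, n = 3, and 69.5 ± 56.3 in iWAT, n = 4, SD), Fbl, Nop58 and Nhp2. Npm1 differed by -3.86 on the log2 scale (SE 0.75, adjusted p 0.000628), beside values of 1.22 (SE 0.35, adjusted p 0.0142) for Nop10, a part of the pseudouridine-adding complex and the gene that was higher. Rack1, a scaffold protein bound to the small subunit, was at 761 ± 191 CPM in iBAT (SD, n = 3), 1714 ± 242 in iWAT (n = 4) and 687 ± 222 in eWAT (n = 3). On the log2 scale iBAT minus iWAT was -1.17 (SE 0.30, adjusted p 0.00745) and iWAT minus eWAT was 1.32 (SE 0.30, adjusted p 0.00617). Of 8 genes tested in the list of elongation factors, which also holds Tpt1, a translationally controlled protein, and Pabpc1, the poly(A)-binding protein, 0 were lower in iBAT than in iWAT and 1 was higher, Eef1a2, the form used by muscle, at 386 ± 305 CPM in iBAT (SD, n = 3) and 10.9 ± 13.9 in iWAT (n = 4). Skeletal muscle markers summed to 35904 ± 23527 CPM in iBAT and 1547 ± 1722 in iWAT at day 0, and their part in this was not tested. Of 27 initiation factors tested, 0 passed the threshold in either direction, with a median of -0.20. Of 14 genes controlling the pathway 1 did, Mtor, higher in iBAT at 13.4 ± 2.42 CPM (SD, n = 3) against 2.85 ± 1.83 (n = 4), or 2.18 on the log2 scale (SE 0.62, adjusted p 0.015). Between iWAT and eWAT, 2 of 30 biogenesis genes (Npm1 and Nop56), Eef1a2 and Rack1 were higher in iWAT, and 0 of the initiation and 0 of the control genes passed (all rows 5.02% higher and 2.8% lower). Between iBAT and eWAT, 3 of the 83 list rows tested passed, Eef1a2 and Nop10 among them, both higher in iBAT, where 10.3% of all rows passed in either direction.

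Cold exposure moved no ribosomal protein gene past the threshold in any depot. In iBAT at day 2, edgeR called 0 of 65 genes (all rows 0.157%), and 4 had an unadjusted p under 0.05 (all rows 12.4%): Rps4x, Rps2, Rpl36al and Rpl39l. DESeq2 called 0 (all rows 3.93%) and voom 0 (all rows 0.157%). At day 4 of iBAT edgeR called 0 of 65 (all rows 0%), 1 had an unadjusted p under 0.05 (all rows 7.03%), and DESeq2 and voom called 0 (all rows 1.09 and 0%). Between days 4 and 2 the iBAT counts were 0 by edgeR (all rows 0%), 1 at an unadjusted p (all rows 3.18%), and 0 by DESeq2 and voom (all rows 0% each). The median log2 change of the genes was 0.17 at day 2 and -0.08 at day 4, against 0.01 and -0.04 over all rows, with a median SE of 0.49 and 0.52 per gene.

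In iWAT at day 2, edgeR called 0 of 66 (all rows 0%), 3 had an unadjusted p under 0.05 (all rows 10.7%), namely Rps29, Rps15a and Rpl36a, and DESeq2 and voom called 0 (all rows 1.17 and 0%). At day 4 of iWAT the counts were 0, then 3 at an unadjusted p (Rps15a and Rps4x among them), and 0 by DESeq2 and voom, against 0, 8.28, 0.48 and 0% of all rows. From day 2 to day 4 they were 0, 2, 0 and 0, against 0, 5.23, 0.021 and 0% of all rows. The median log2 change was -0.17 at day 2 and -0.17 at day 4, against -0.08 and -0.01 over all rows.

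In eWAT the genes leaned upward at day 4 without any passing a test. At day 2 edgeR called 0 of 66, none had an unadjusted p under 0.05, and DESeq2 and voom called 0, against 0, 1.06, 0 and 0% of all rows. At day 4 the counts were again 0, 0, 0 and 0, against 0, 2.76, 0.0404 and 0% of all rows. From day 2 to day 4 they were 0, 1, 0 and 0, against 0, 4.34, 0.0101 and 0% of all rows. At day 4 the log2 change from day 0 was positive in 58 of 66 genes (87.9%, against 49.5% of all rows), with a median of 0.47 and -0.01 over all rows. The median stayed between 0.28 and 0.59 with any eWAT library left out. The share of the total count was 6.22, 8.26 and 5.17% in the 3 libraries of day 4 and 6.43, 5.02 and 5.13% in those of day 0, so that the groups overlapped and eWAT551 was the highest. In the same libraries macrophage markers (8 of 11 with a row) summed to 167 to 333 CPM at day 0 and 351 to 782 CPM at day 4, and sperm markers (6 of 7) to 57.9 to 315 CPM and 354 to 464 CPM, both without overlap. Epididymis markers summed to 24947, 126 and 1896 CPM in eWAT516, eWAT517 and eWAT518 at day 0. At day 4 they summed to 1633, 23049 and 747 CPM in eWAT548, eWAT551 and eWAT553. On each of these days the library with the highest sum, eWAT516 or eWAT551, also had the highest ribosomal protein share. The part of these 3 marker sets in the upward lean was not tested. Genes measured in the same 6 libraries are not separate observations of the cold.

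Rps4x in brown fat had the log2 change farthest from 0 of the ribosomal protein genes tested in the cold. It is the X-linked small-subunit protein S4, annotated on chromosome X from 102184941 to 102189391 in GRCm38.p6. In iBAT it was at 162, 117 and 140 CPM at day 0, at 23, 25.4 and 18 CPM at day 2 with no count listed in iBAT539, and at 20.2 and 13.1 CPM at day 4 with no count listed in iBAT548. Every cold iBAT library with a listed count lay below every day 0 library. The log2 change was -3.02 ± 1.06 at day 2 (SE, adjusted p 0.278) and -3.65 ± 1.22 at day 4 (SE, adjusted p 0.542), so it did not pass over all rows. Without iBAT539 and iBAT548, where missing values are uncertain, it was -2.61 at day 2 (adjusted p 0.017) and -3.04 at day 4 (adjusted p 0.05 as rounded, just under the threshold). These were the only ribosomal protein calls in the cold among the settings tried. The share of all rows called without those libraries is not given here. Over all 19 settings the log2 change ran from -3.83 to -2.12 at day 2 (adjusted p 0.017 to 0.727) and from -5.62 to -3.04 at day 4 (adjusted p 0.05 to 1). In iWAT the gene was at 180 CPM in iWAT516 and otherwise at 33.3 to 58.9 CPM over all days. In eWAT it ran from 30.2 to 111 CPM at day 0 and from 34.3 to 94.3 CPM in the cold, with overlap. Of its 50-base windows 72.2% are shared with other genes, 10 of them pseudogenes. Skeletal muscle markers summed to 24428, 20317 and 62967 CPM in the iBAT libraries of day 0, to 7469 to 12385 CPM at day 2, and to 24791, 15466 and 4402 CPM at day 4. The part of muscle RNA in the change was not tested.

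**Figure D4:**
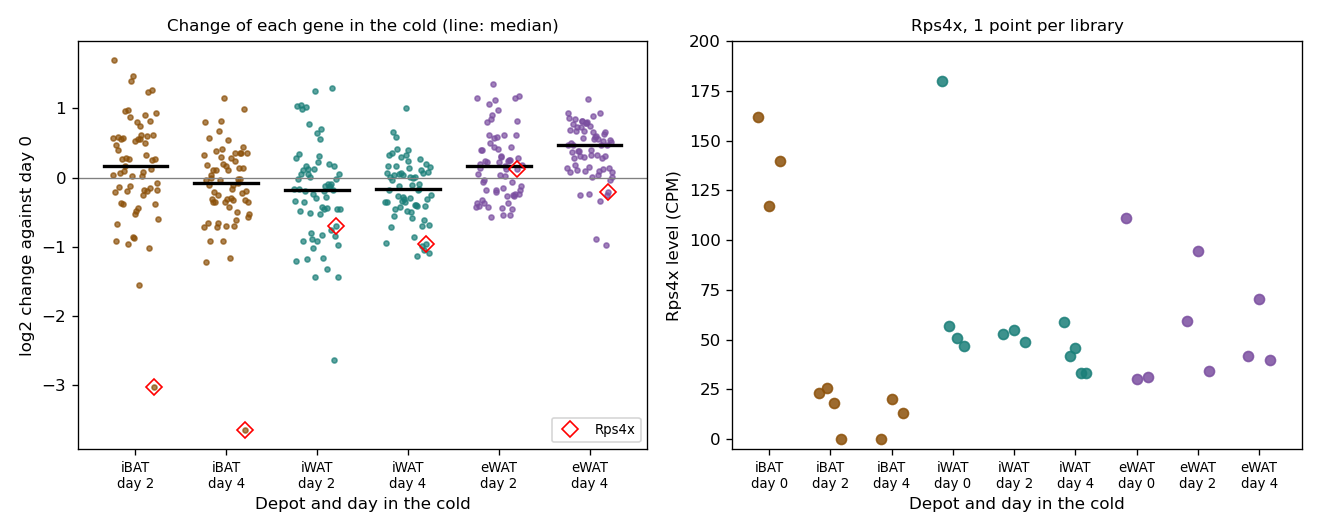
Left, log2 change against day 0 of each tested ribosomal protein gene at days 2 and 4 in each depot (points), with the median as a black line and Rps4x as a red diamond. Right, Rps4x level in CPM in each library by depot and day. The iBAT points of days 2 and 4 are drawn below the 3 of day 0. Of the cold points 2 are drawn at 0, iBAT539 and iBAT548, where no count is listed and a count of 0 is not shown.

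Whether the cold acted differently on these genes in different depots was tested directly as a difference of changes, over all 31 libraries, and no gene passed. For iBAT against iWAT at day 2, edgeR called 0 of 66, 6 had an unadjusted p under 0.05, and DESeq2 and voom called 0, against 0, 10.4, 0.858 and 0% of all rows. At day 4 the counts were 0, 3, 0 and 0, against 0, 5.76, 0.384 and 0.0181%. For iBAT against eWAT they were 0, 2, 0 and 0 at day 2, against 0, 4.29, 0.357 and 0%, and 0, 4, 0 and 0 at day 4, against 0, 4.03, 0.256 and 0%. For iWAT against eWAT they were 0, 3, 0 and 0 at day 2, against 0, 5.33, 0.219 and 0%, and 0, 5, 0 and 0 at day 4, against 0, 4.06, 0.111 and 0%. Rps4x had the lowest difference in all 4 comparisons with iBAT, from -2.39 (SE 1.13, adjusted p 0.472) to -3.51 (SE 1.26, adjusted p 0.989). At day 4 the median difference was -0.65 for iBAT against eWAT and -0.52 for iWAT against eWAT, against -0.26 and 0.02 over all rows. In the other lists of the translation machinery, edgeR called 0 of their 76 to 82 rows in each of the 9 comparisons, and 0 to 9 of these rows had an unadjusted p under 0.05, the 9 being of 76 at day 2 of iBAT, where 12.4% of all rows did.

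Beneath these averages, ribosomal protein rows moved in opposite directions between libraries of 1 group. Within groups, 8 of the 66 genes (12.1%, against 5.48% of all rows) had a correlation over 0.8 with the library score, a score that left these genes out: Rps29, Rps7, Rpl11, Rpl27a, Rpl35, Rpl36, Rpl37 and the pseudogene Rps4l. Another 7 (10.6%, against 6.03%) had one under -0.8: Rplp0, Rpl9, Rpl12, Rpl13, Rpl18, Rpl39 and Rps27l. These are descriptions over 31 libraries, which share their depth and preparation, and the genes were grouped after their values were seen. Rps29, a zinc-binding protein of the small subunit, had the widest range: at day 0 it was at 486, 2591 and 671 CPM in iBAT, at 20950, 16206, 13923 and 287 CPM in iWAT, and from 144 to 6277 CPM in eWAT. The 4 highest of these libraries are those with high scores, so that the iWAT group held values on both sides. Rps29 alone was 15.2% of the ribosomal protein counts in iWAT516 and 0.384% in iWAT522. Its log2 difference between iBAT and iWAT at day 0 was -3.36 (SE 1.45, adjusted p 0.11), the lowest of all 66 and not past the threshold.

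Rplp0, the core of the stalk and often used as a reference gene, ran the other way. It was at 1279 CPM in iWAT522 and at 136 CPM in iWAT518, both at day 0, and over all libraries it ran from 43.3 CPM in iBAT548 to 1327 CPM in iWAT548. Rpl11, which with Rpl5 and the 5S RNA holds back Mdm2, was at 3462, 1890, 3282 and 333 CPM in the iWAT libraries of day 0, with a correlation of 0.89 to the score within groups. Its partner Rpl5 was at 1354, 2089, 1307 and 1908 CPM there, with a correlation of -0.622. The correlations of the partners with the score thus had opposite signs. The sum of the 8 genes over the sum of the 7 had a log2 ratio from -2.5 in iWAT548 to 4.23 in iBAT548. The sum over the other genes ran from 50484 to 102446 CPM in iWAT and from 30360 to 46224 CPM in iBAT. In the 2 sets the median transcript length was 889 and 738 bases, GC content 53 and 51.6%, and shared windows 38 and 49%. The ranges of the sets overlapped in each, and the differences were not tested. Both sets hold genes of both subunits, 5 and 6 of the large and 3 (with Rps4l) and 1 of the small. Rpl13a had little of the axis, with a correlation of -0.116 and an SD within groups of 0.39 on the log2 scale, against a median of 0.67 over the 66 genes and 2.15 for Rps29.

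**Figure D5:**
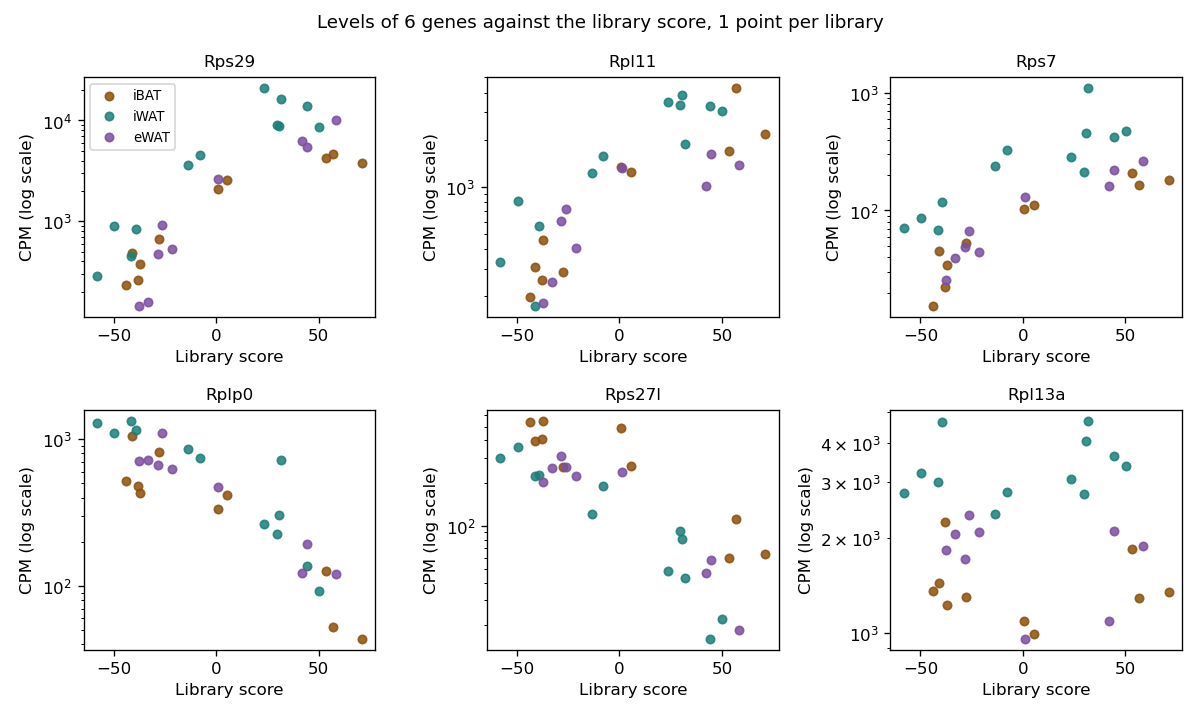
Level in CPM (y axis, log scale) of 6 ribosomal protein genes against the library score (x axis, no unit), 1 point per library, coloured by depot. Rps29, Rpl11 and Rps7 were higher in libraries with a high score, Rplp0 and Rps27l were lower, and Rpl13a was higher in every iWAT library than in every iBAT library.

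Genes with a higher slope on the library score tended to have a lower iBAT minus iWAT difference at day 0. Across the 66 genes the slope and the difference had a Spearman rho of -0.601, as a description over genes, which are not independent. Both values come from the same libraries, and the score is centred within each depot. Of the 17 genes called lower in iBAT, 11 had a within-group correlation with the score under 0.5 in size. The other 6 were Rpl12, Rpl17, Rps7, Rps13, Rps15a and Rps19. Most of the 66 tested genes were also under that size, so the count does not set the called genes apart. With the score as a covariate, 21 genes were called, of which 20 were lower in iBAT and 1 was higher. Of the 17, 15 were among them. The share of all rows called in that fit is not given here. The part of the axis in the depot differences was not tested.

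Paralogs of ribosomal proteins, which can take the place of the common form in some tissues, were looked at beside the common forms. Mean levels over all libraries were 464 CPM per kb for Rpl36al against 323 for its common form Rpl36a, 418 for Rps27l, 9.45 for Rpl39l against 919 for Rpl39, and 0.12 for Rpl3l against 838 for Rpl3. Rpl39l was at 0.599 to 19 CPM in all libraries except iWAT555, at 41.2 CPM (309 counts), with 18.9 CPM (64 counts) in iWAT522. The sperm markers (6 of 7 with a row) summed to 3192 CPM in iWAT555 and 978 CPM in iWAT522, and to at most 118 CPM in every other iWAT library. In eWAT, where the sperm markers summed to 57.9 to 464 CPM, Rpl39l was at 0.599 to 7.38 CPM. In iWAT553 Rpl39l was at 12.8 CPM beside a sperm marker sum of 5.32 CPM. In iBAT535 it was at 17.5 CPM beside a sum of 1 CPM. The part of sperm RNA in the Rpl39l values was not tested. In iBAT Rpl39l was at 6.52, 5.14 and 5.63 CPM at day 0 and at 7.66, 16.1, 17.5 and 19 CPM at day 2. These did not overlap, but its log2 change of 1.47 (SE 0.51) had an adjusted p of 0.262. Its common form Rpl39 ran the other way: all 3 libraries of day 0, with 711 CPM in iBAT516 as the highest, lay above those of day 2 at 507, 493, 56.8 and 224 CPM, which were lowest in the 2 with high scores. Its log2 change of -0.86 (SE 0.69) had an adjusted p of 0.632. Rps27l, a paralog of Rps27 that p53 induces, was at 301 CPM in iWAT522. It was at 16 to 48.3 CPM in the other iWAT libraries of day 0. Its correlation with the score within groups was -0.916, near the -0.927 of Rplp0, so this pattern was not particular to paralogs. Rpl36al was at 188, 112 and 190 CPM at day 0 of iBAT and at 266, 238, 196 and 413 CPM at day 2, again without overlap, with an adjusted p of 0.375. The muscle paralog Rpl3l reached at most 1.48 CPM, in iBAT518, the library with the highest muscle marker sum of 62967 CPM.

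Likeness to the rest of the ribosomal proteins also varied. Over the 31 libraries the correlation of a gene's log2 level with the log2 sum of the others was 0.88 for Rpl17 and 0.854 for Rps6, which were among the 3 highest. It was lowest for Rps27l (-0.441), followed by Rps27 (-0.282) and Rpl3l (-0.229), both of which rest on 16 counts. These correlations were taken over the 3 depots together and not within groups, so the depot differences enter them. The libraries also share depth and the library axis, and no p is given.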

How the data were processed

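The authors deposited RNA-seq read counts per RefSeq accession, 1 table per depot, which were used as they are. Per the submitters' processing notes, BWA, cutadapt and the build mm10 were used. Strand, counting rule and versions were not given in the sources used here. The tables list no 0, and empty cells were set to 0 counts.

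Accessions were given symbols from RefSeq GRCm38.p6 (17030 of 17334) or GENCODE M21 (105), and 199 had none. Differences were tested with edgeR 4.0.16 (quasi-likelihood, TMM scaling, robust, R 4.3.3) after its filter on low counts (minimum count 10, minimum total 15), within each depot for the cold and over all 31 libraries otherwise, with Benjamini-Hochberg adjustment over all rows at 0.05. DESeq2 1.42.0 and voom in limma 3.58.1 were alternatives, as were other scalings, no filter, a replicate block, the library score as a covariate, rows of a symbol summed, iBAT539 and iBAT548 left out, and each library left out. The fits were tested on simulated data. Levels are CPM of TMM-scaled library sizes, and marker sums are CPM of the plain total. The score projects log2 CPM, centred on the mean of the library's own depot, on the main within-group axis of the other 2 depots. It covers 7873 rows without ribosomal protein genes.

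Genes with full values were those fixed for their role, the 5 highest and 5 lowest per kilobase, the largest changes in each comparison, and the 3 most and 3 least like the rest. Other genes named were chosen after their values were seen. The genes, lists and tests were chosen with earlier results of these data known. Results of a few genes are not reported here by name, though counts include them. Counts limit the precision of low genes, and p-values cover the spread between libraries.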

Additional observations from a re-analysis of the deposited data

Results flagged for a closer look

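Over the groups of 4 or 5 libraries, 78 sets of values (the share of the total count and the CPM of named genes) were examined, and 4 had 1 library far from the others by Dixon's test at the 95% level, which chance alone does in about 1 in 20 groups. Rps4x was at 180 CPM in iWAT516 at day 0, with the next library at 56.8 CPM. Rps27l was at 301 CPM in iWAT522 at day 0, the library of low score, with the next at 48.3 CPM. At day 4 of iWAT, Rpl41 was at 1884 CPM in iWAT550, with the next at 826 CPM, and Rps16 was at 522.1 CPM in iWAT551, with the next at 211 CPM.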

How the results depend on the processing

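No called gene or count reversed its direction under the settings tried. Of the ribosomal protein genes lower in iBAT than in iWAT at day 0 (17), library size alone gave 26, no filter 10 and DESeq2 29. Of those higher in iWAT than in eWAT (8), they gave 4, 4 and 21, and the library score as a covariate gave 16. That covariate also gave 1 gene between iBAT and eWAT. Leaving out 1 library gave 4 to 21 and 3 to 14 genes. Without iBAT539 and iBAT548, 1 gene was called at day 2 and 1 at day 4 of iBAT, Rps4x in each. Except for DESeq2, the shares of all rows called under these settings are not given here. Whether the counts over all rows rose or fell alike is therefore not shown. With library size alone the median log2 change was -0.0764 and -0.3407 at days 2 and 4 of iBAT, -1.3224 for iBAT against iWAT and -0.3422 for iBAT against eWAT, beside all-row medians of -0.27, -0.3, -0.53 and -0.62 (0.01, -0.04, -0.18 and -0.18 with TMM). With the score it was 0.0661 at day 2 of iWAT, and -0.0028 and -0.2558 for the iBAT minus iWAT difference in change at days 2 and 4. Shares of TMM-scaled library sizes were 4.59, 5.2 and 4.15% in iBAT at days 0, 2 and 4 and 4.54% in eWAT at day 0. Causes were not tested.

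The depots share label numbers, which the main fits did not take as pairs. Only 6 of 23 same-numbered pairs of libraries deviated together (correlation over 0.1, median -0.0754). Such correlations cannot show whether same-numbered libraries came from the same mouse. The counts with the replicate block that follow have no share of all rows beside them. With the replicate block, 11 genes passed between iBAT and iWAT (10 lower, 1 higher), and 6 between iWAT and eWAT. With the replicate block and the score, 9 passed between iBAT and iWAT and 1 between iBAT and eWAT, and the iWAT minus eWAT difference in change at day 4 had a median of -0.8007. Depth limits the rows with few counts, Rpl3l and Rps27 at 16 counts each.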
